A study of Mus musculus with 14 samples.

Results

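ADAMTS proteases are secreted metalloproteinases that cut proteins of the extracellular matrix, and 10 genes of this family were examined in the mouse left ventricle: Adamts1, Adamts2, Adamts4, Adamts5, Adamts8, Adamts9, Adamts10, Adamts12, Adamts15 and Adamtsl2. Each gene was represented by the probe set that carries its symbol alone and has the highest mean over the arrays. Of the 10 genes, 9 were measured among 19937 genes in all, and Adamts2 was not analysed here because no probe set was listed under its symbol alone. RNA from the left ventricular myocardium of male mice was hybridised to 14 arrays, 1 per mouse. WT mice (C57BL/6) had Sham surgery (n = 3) or aortic banding, AB, in which a ligature narrows the ascending aorta and loads the ventricle with pressure (n = 4). CXCR5-/- mice, which lack the chemokine receptor CXCR5 in every tissue and were kept on a C57BL/6 background, had Sham surgery (n = 3) or AB (n = 4), and all hearts were taken 3 weeks after surgery. The mice are systemic knockouts made in embryonic stem cells of another strain, so sequence next to Cxcr5 may still be of that strain.

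An ADAMTS protease is made as an inactive precursor, loses its propeptide to a furin-type convertase, and binds matrix through thrombospondin repeats behind its catalytic domain. Adamts1, Adamts4, Adamts5, Adamts8, Adamts9 and Adamts15 belong to the branch known for cutting the large hyaluronan-binding proteoglycans versican and aggrecan, Adamts2 trims the amino-terminal propeptide of fibrillar procollagens, and Adamts12 cuts cartilage oligomeric matrix protein (COMP). Adamts10 and Adamtsl2 are tied to fibrillin microfibrils. Adamtsl2 has no catalytic domain: it is an ADAMTS-like glycoprotein that binds fibrillin and latent TGF-beta binding protein, and its loss in humans causes geleophysic dysplasia, in which heart valves and skin thicken.

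The promoters of Adamtsl2 and Adamts12 are printed because both genes rose with AB, and that of Adamts1 because it shares a motif with Adamtsl2 but did not pass the test. RefSeq promoter windows (GRCm38.p6, 250 bases before to 50 after the start of the gene, on the strand of the gene) matched 5 of the 10 members: Adamts1, Adamts2, Adamts9, Adamts12 and Adamtsl2. The Adamtsl2 window lies at chr2:27079129-27079428 on the plus strand, that of Adamts12 at chr15:11064523-11064822 on the plus strand and that of Adamts1 at chr16:85803064-85803363 on the minus strand. Capitals mark a TATA box (TATAAA) or a GC box (GGGCGG), each searched on both strands.
Adamtsl2: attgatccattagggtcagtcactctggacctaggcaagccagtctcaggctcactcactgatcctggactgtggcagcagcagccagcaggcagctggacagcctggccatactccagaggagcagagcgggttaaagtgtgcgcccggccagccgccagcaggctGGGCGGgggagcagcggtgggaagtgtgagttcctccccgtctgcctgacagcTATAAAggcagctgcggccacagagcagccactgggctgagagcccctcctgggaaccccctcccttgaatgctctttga
Adamts12: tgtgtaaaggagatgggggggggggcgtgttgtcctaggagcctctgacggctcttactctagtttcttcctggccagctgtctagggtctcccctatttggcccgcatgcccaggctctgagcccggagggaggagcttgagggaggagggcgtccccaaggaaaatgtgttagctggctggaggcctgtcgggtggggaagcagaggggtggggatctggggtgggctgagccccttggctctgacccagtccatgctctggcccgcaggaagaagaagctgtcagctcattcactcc
Adamts1: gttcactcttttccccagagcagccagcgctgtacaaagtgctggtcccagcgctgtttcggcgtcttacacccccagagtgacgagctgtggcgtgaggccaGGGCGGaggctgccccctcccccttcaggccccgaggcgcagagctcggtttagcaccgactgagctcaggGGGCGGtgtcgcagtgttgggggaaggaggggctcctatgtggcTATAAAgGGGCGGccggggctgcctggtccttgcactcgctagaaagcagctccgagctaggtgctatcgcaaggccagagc
Adamtsl2 held 1 TATA box, whose first base lay at -30 from the start site, and Adamts1 held 1 at -32, a motif found in 13.6% of the 32851 windows of this length. A GC box, found in 35.7% of all windows, was matched 1 time in Adamtsl2, 3 times in Adamts1 and at no position in Adamts12. Letters for AP-1 (TGANTCA), TEAD (GGAATG) and SMAD (CAGACA) were matched in none of the 5 member windows, against 7.81%, 14.7% and 21.0% of all windows. The TATA box was thus present beside 1 gene that rose with AB and 1 that did not pass, and these matches are descriptions of letters, not of factor binding.

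Values are log2 expression as deposited by the authors after robust multi-array averaging (RMA), so a difference of 1 is a doubling. Levels of the members are compared only within a gene, since probe sets differ in how strongly they bind. Differences were tested with limma over all 19937 genes, and a gene passed where the Benjamini-Hochberg adjusted p was under 0.05. The 8 cardiomyocyte markers averaged 11.95 to 12.23 on every array, where the median probe set was at 5.19 to 5.30. Myl7, an atrial myosin light chain, was at 8.82 to 9.68 on 3 Sham arrays (WT replicate 1, CXCR5-/- replicates 1 and 2) and at 5.65 to 7.49 on the other 11, and Bmp10, another atrial gene, was at 6.78 on AB CXCR5-/- replicate 4 and at 3.02 to 3.32 on the other 13. Differences of some genes and counts in some lists are also given without the 3 Sham arrays high in Myl7. That fit keeps 1 CXCR5-/- Sham array, and fewer of all genes pass in CXCR5-/- there. A call lost in it may reflect lost precision alone, which was not tested.

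Adamtsl2 rose with AB in both genotypes, and Adamts8 and Adamts12 rose by less in both. No member fell in either genotype by this test. In WT, 3 of the 9 members rose, beside 5.10% of all genes that rose and 4.22% that fell. In CXCR5-/-, the same 3 of 9 members rose, beside 8.28% of all genes that rose and 5.86% that fell. The median difference between AB and Sham over the 9 members was 0.20 in WT and 0.22 in CXCR5-/-, and over all genes it was 0.01 and -0.01. Without the 3 Sham arrays high in Myl7, 1 CXCR5-/- Sham array is left and is taken to vary like the other groups. The differences in WT and CXCR5-/- were then 1.28 and 1.78 for Adamtsl2, 0.61 and 0.78 for Adamts8 and 0.45 and 0.62 for Adamts12.

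**Figure D1:**
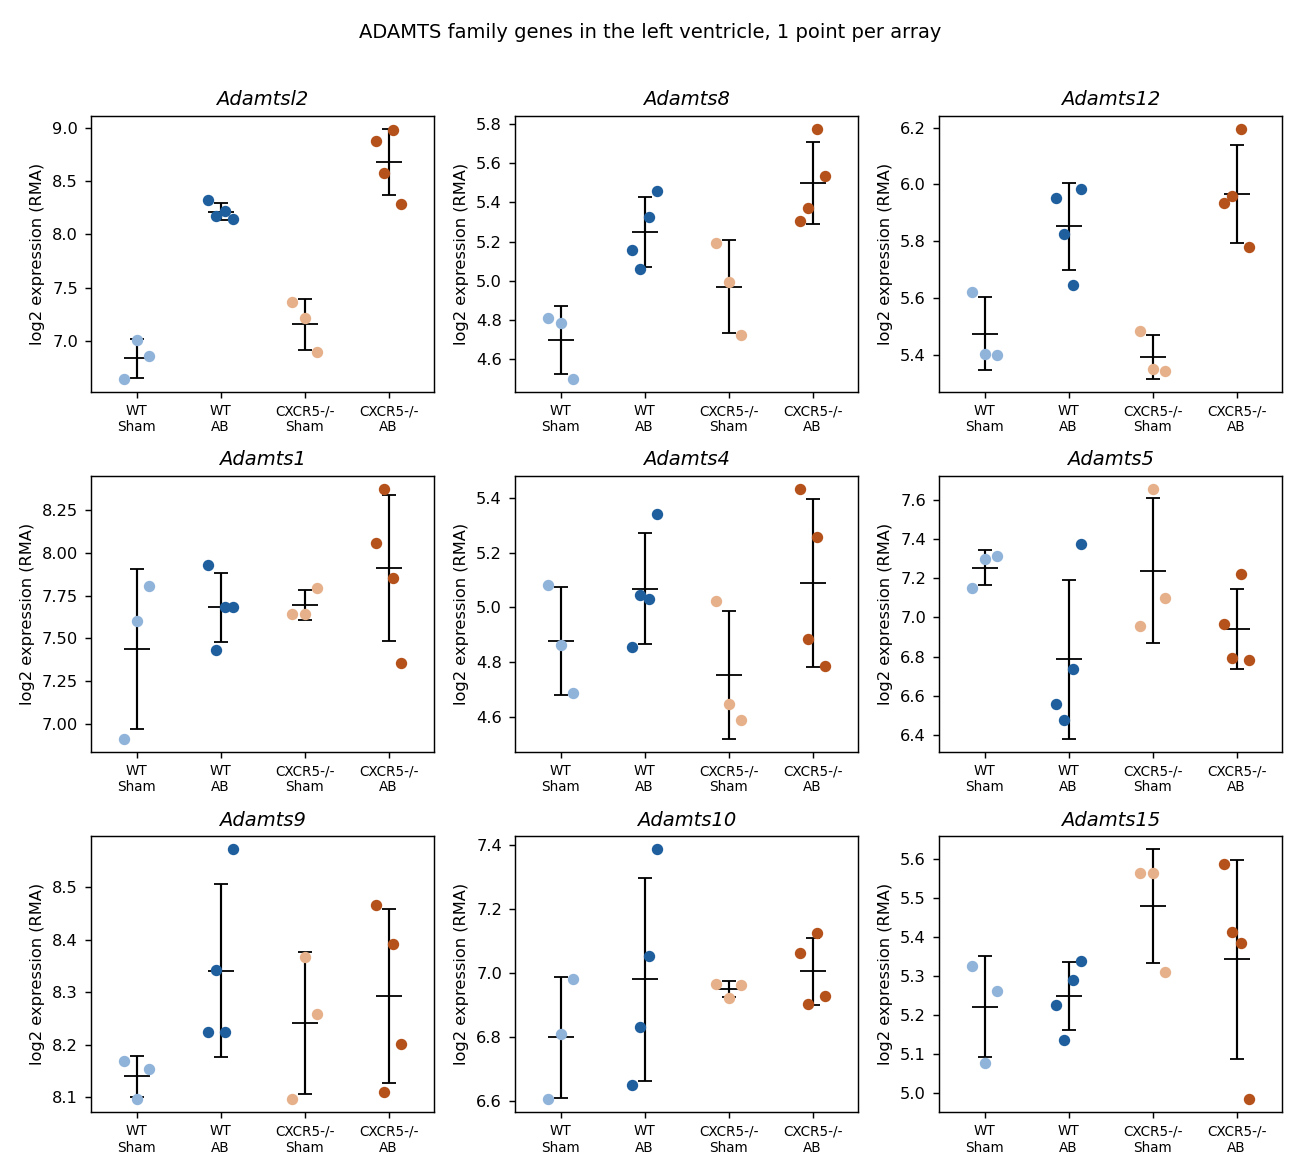
Log2 expression (RMA) of the 9 measured ADAMTS family genes in the 4 groups, with 1 point per array, the group mean as a horizontal line and the SD as the error bar; each panel has its own axis. For Adamtsl2, all AB arrays lie between 8.14 and 8.97, above all Sham arrays at 6.65 to 7.36, while Sham and AB arrays of Adamts1, Adamts4, Adamts10 and Adamts15 overlap.

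Adamtsl2, the microfibril-binding glycoprotein, had the largest difference of the 9 members in both genotypes. Its log2 level was 6.65, 7.01 and 6.86 on the WT Sham arrays and 8.32, 8.18, 8.22 and 8.14 on the WT AB arrays. On the CXCR5-/- arrays it was 7.36, 7.22 and 6.90 after Sham and 8.88, 8.58, 8.97 and 8.28 after AB. Every AB array was thus above every Sham array, across genotypes too, and the WT AB arrays were closer together (SD 0.08) than the CXCR5-/- AB arrays (SD 0.31). AB minus Sham was 1.37 on the log2 scale in WT (SE 0.15, 2.59-fold, adjusted p = 1.68e-05) and 1.52 in CXCR5-/- (SE 0.15, 2.86-fold, adjusted p = 3.31e-06). These differences lay at the percentiles 99.7 and 99.7 of all genes. Adamtsl2 passed in both genotypes under each of the 27 alternatives run, with differences of 1.27 to 1.46 in WT and 1.39 to 1.91 in CXCR5-/-.

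Over the 14 arrays, the levels most like that of Adamtsl2 were those of Itgbl1 (Pearson r = 0.98), Ccn2, a matricellular protein (r = 0.98), and Mfap4, a microfibril-associated protein (r = 0.97). These r values include the gap between Sham and AB that the genes share. With each array set against its own group mean, the genes most like Adamtsl2 were instead the zinc transporter Slc39a6 (r = 0.91), Slc25a47 (r = 0.86) and Trpm2 (r = 0.85). Both lists are descriptions of 14 arrays, and the arrays of a group share one surgery and genotype.

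Adamts8 and its neighbour Adamts15 lie next to each other on chromosome 9, the chromosome of Cxcr5, with 206 protein-coding genes between Adamts8 and Cxcr5. Adamts8, a protease of the versican and aggrecan branch that is also known to restrain vessel growth, was at 4.81, 4.78 and 4.50 on the WT Sham arrays and at 5.16, 5.06, 5.32 and 5.46 on the WT AB arrays. In CXCR5-/- it was at 5.19, 4.99 and 4.72 after Sham and at 5.31, 5.37, 5.78 and 5.53 after AB. Within each genotype the AB arrays were all above the Sham arrays, whereas the CXCR5-/- Sham and WT AB arrays overlapped. AB minus Sham was 0.55 in WT (SE 0.14, 1.47-fold, adjusted p = 0.0155) and 0.53 in CXCR5-/- (SE 0.14, 1.44-fold, adjusted p = 0.0140). The call was lost in WT without WT Sham replicate 3 (0.45, adjusted p = 0.109) and in CXCR5-/- without CXCR5-/- Sham replicate 3 (0.40, adjusted p = 0.104). In CXCR5-/- it was also lost without the 3 Sham arrays high in Myl7 and AB CXCR5-/- replicate 4 (0.77, adjusted p = 0.0565).

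Adamts15, the neighbouring protease of the same branch, gave 5.33, 5.08 and 5.26 on the WT Sham arrays, 5.23, 5.14, 5.29 and 5.34 on the WT AB arrays, 5.56, 5.56 and 5.31 on the CXCR5-/- Sham arrays and 5.59, 5.41, 5.38 and 4.99 on the CXCR5-/- AB arrays. All groups overlapped, with AB CXCR5-/- replicate 4 lowest. AB minus Sham was 0.03 in WT (95% interval -0.23 to 0.29) and -0.14 in CXCR5-/- (-0.40 to 0.12), and neither passed.

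Adamts12, which cuts COMP, was at 5.62, 5.40 and 5.40 on the WT Sham arrays and at 5.95, 5.83, 5.65 and 5.98 on the WT AB arrays. In CXCR5-/- it was at 5.48, 5.35 and 5.34 after Sham and at 5.94, 5.96, 6.20 and 5.78 after AB. Every AB array lay above every Sham array, the narrowest gap being that between WT AB replicate 3 and WT Sham replicate 1. AB minus Sham was 0.38 in WT (SE 0.11, 1.30-fold, adjusted p = 0.0390) and 0.58 in CXCR5-/- (SE 0.11, 1.49-fold, adjusted p = 0.00167). The rise in WT was close to the threshold: it passed in 19 of 27 alternatives, and leaving out any 1 of WT AB replicates 1, 2 or 4, WT Sham replicates 2 or 3 or CXCR5-/- Sham replicates 2 or 3 gave 0.33 to 0.39 with an adjusted p of 0.0502 to 0.161. In CXCR5-/- it passed in 26 of 27, the exception being the fit without the 3 Sham arrays high in Myl7 (0.62, adjusted p = 0.0512). The levels most like that of Adamts12 over the 14 arrays were those of Lpar1, a lysophosphatidic acid receptor (r = 0.97), Leprot (r = 0.96) and Tpbg (r = 0.95). Against the group means, Lpar1 was again first (r = 0.94), followed by Gpr176 (r = 0.88) and Ccdc172 (r = 0.87).

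**Figure D2:**
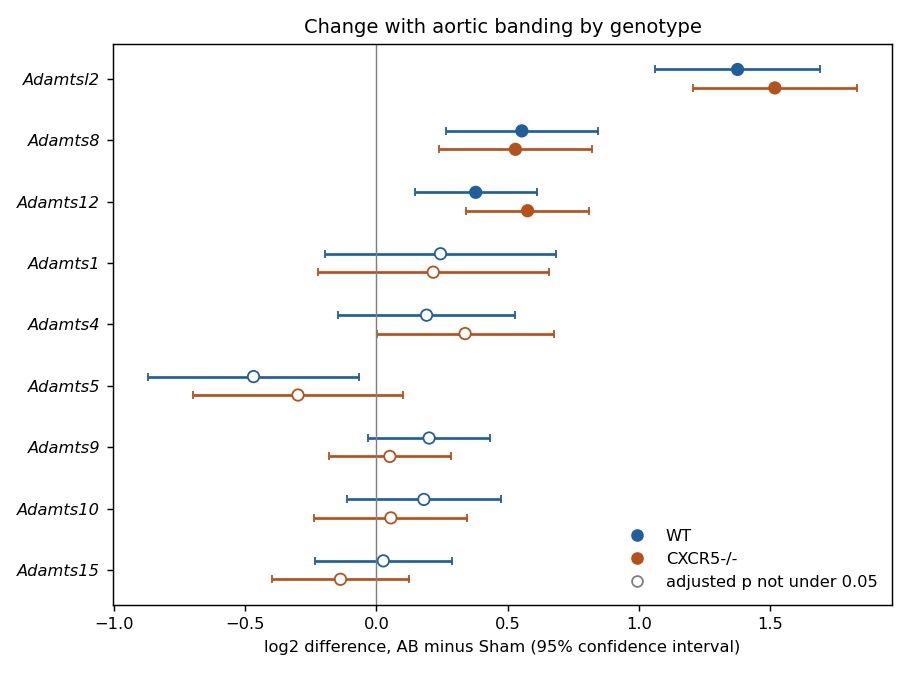
Log2 difference between AB and Sham for each of the 9 genes in WT and in CXCR5-/-, with 95% confidence intervals from limma; filled points have an adjusted p under 0.05. Adamtsl2 (1.37 and 1.52), Adamts8 and Adamts12 lie to the right of 0 in both genotypes, and Adamts5 (-0.47 and -0.30) lies to the left with open points.

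Adamts5, a main aggrecan- and versican-cutting protease, was the member with the lowest values of AB minus Sham. It was at 7.15, 7.29 and 7.31 on the WT Sham arrays and at 6.56, 6.48, 6.74 and 7.37 on the WT AB arrays. In CXCR5-/- it was at 6.96, 7.65 and 7.10 after Sham and at 6.97, 6.79, 7.22 and 6.78 after AB. In WT, 3 of the 4 AB arrays were below all Sham arrays and replicate 4 was above them, and in CXCR5-/- the groups overlapped. The difference was -0.47 in WT, which did not pass (SE 0.19, adjusted p = 0.153), and, without passing either, -0.30 in CXCR5-/- (SE 0.19, adjusted p = 0.366). Averaged over both genotypes the difference was -0.38 (SE 0.13, adjusted p = 0.0490), which passed by a narrow margin; in that comparison 3 members rose (Adamts8, Adamts12 and Adamtsl2) and Adamts5 fell, beside 12.3% and 10.4% of all genes. That call held in 9 of 25 alternatives, over which the difference ranged from -0.48 to -0.28 and the adjusted p from 0.00298 to 0.286. In WT alone, Adamts5 passed in 2 of 27 alternatives. These were without WT AB replicate 4 (-0.66, adjusted p = 0.0115) and with estimated array weights (-0.54, adjusted p = 0.0312).

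Adamts1, the neighbour of Adamts5 on chromosome 16 and a protease needed for heart valve and trabecula shaping, varied among arrays of one group. It was at 6.91, 7.60 and 7.80 on the WT Sham arrays, 7.93, 7.43, 7.68 and 7.68 on the WT AB arrays, 7.64, 7.64 and 7.79 on the CXCR5-/- Sham arrays and 8.06, 8.37, 7.85 and 7.35 on the CXCR5-/- AB arrays. The Sham and AB arrays overlapped in both genotypes, with WT Sham replicate 1 lowest. The difference was 0.24 in WT (95% interval -0.20 to 0.68) and 0.22 in CXCR5-/- (-0.22 to 0.66). Without WT Sham replicate 1 the WT value was -0.02.

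Adamts4, the other main aggrecanase, was at 5.08, 4.86 and 4.69 on the WT Sham arrays, 4.85, 5.04, 5.03 and 5.34 on the WT AB arrays, 5.02, 4.65 and 4.59 on the CXCR5-/- Sham arrays and 5.44, 4.89, 5.26 and 4.78 on the CXCR5-/- AB arrays. The groups overlapped in both genotypes. With a standard error of 0.16 in both genotypes, the difference was 0.19 in WT (adjusted p = 0.566) and 0.34 in CXCR5-/- (adjusted p = 0.195). With estimated array weights the CXCR5-/- value was 0.47 and passed (adjusted p = 0.00981).

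Adamts9 cuts versican and is expressed in the developing heart and its valves. It had 6 probe sets, and the one used gave 8.17, 8.10 and 8.15 on the WT Sham arrays, 8.22, 8.34, 8.22 and 8.57 on the WT AB arrays, 8.10, 8.37 and 8.26 on the CXCR5-/- Sham arrays and 8.47, 8.11, 8.39 and 8.20 on the CXCR5-/- AB arrays. The WT AB arrays were all above the WT Sham arrays, whereas the CXCR5-/- groups overlapped. With a standard error of 0.11, the difference was 0.20 in WT (adjusted p = 0.322) and 0.05 in CXCR5-/- (adjusted p = 0.836). Groups in which all AB arrays exceeded all Sham arrays were seen for 4 of 9 members in WT (Adamts8, Adamts9, Adamts12 and Adamtsl2) and 3 of 9 in CXCR5-/-, beside 9.39% and 13.7% of all genes. The other 5 probe sets of Adamts9 gave differences of -0.08 to 0.31 over both genotypes.

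Adamts10, which binds fibrillin, was at 6.61, 6.81 and 6.98 on the WT Sham arrays, 6.65, 6.83, 7.05 and 7.39 on the WT AB arrays, 6.97, 6.92 and 6.96 on the CXCR5-/- Sham arrays and 7.06, 6.91, 7.13 and 6.93 on the CXCR5-/- AB arrays. The Sham and AB arrays overlapped in both genotypes. The difference was 0.18 in WT (95% interval -0.11 to 0.47) and 0.06 in CXCR5-/- (-0.24 to 0.35).

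The study asked what the lack of CXCR5 changes in the loaded heart, so the genotypes were compared after each surgery. The Cxcr5 probe set ranged from 3.85 to 4.47 in the 7 libraries labelled CXCR5-/- and from 3.03 to 3.30 in the 7 WT libraries, and was thus higher where the gene was targeted. Which part of the gene the probes cover was not stated, so this does not check the labels, and directions between genotypes hold for the libraries as labelled. No member passed between genotypes: 0 of 9 after AB, beside 0.0451% of all genes, and 0 of 9 after Sham, beside 0.0401%. Significance analysis of microarrays also called 0 members in each. At an unadjusted p under 0.05 there was 1 member after AB and 0 after Sham, beside 5.94% and 2.38% of all genes.

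That member was Adamtsl2. After AB it averaged 8.68 ± 0.31 (SD, n = 4) in labelled CXCR5-/- and 8.21 ± 0.08 (SD, n = 4) in WT, with CXCR5-/- replicate 4 inside the WT range. Set against the WT array of the same number, the CXCR5-/- arrays were 0.56, 0.40, 0.76 and 0.14 higher. The difference was 0.46 (95% interval 0.17 to 0.75, 1.38-fold), which did not pass in limma (adjusted p = 0.419, and 0.249 with the replicate number as a block). Without AB CXCR5-/- replicate 4, the array high in Bmp10, it was 0.60 (adjusted p = 0.0907), and the adjusted p over 27 alternatives ranged from 0.0668 to 0.917. After Sham the difference was 0.32 (95% interval -0.01 to 0.66), and without the 3 Sham arrays high in Myl7 it was -0.04. The order of its group means was Sham WT, Sham CXCR5-/-, AB WT and AB CXCR5-/-, and of these neighbours only the middle pair did not overlap.

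Over the 9 members, the mean in labelled CXCR5-/- minus that in WT ranged from -0.05 to 0.46 after AB and from -0.12 to 0.32 after Sham. The median was 0.12 and 0.15, beside -0.0019 and 0.0056 over all genes. Whether the 9 members differ as a set was not tested. Adamts8 was 0.25 higher after AB (95% interval -0.02 to 0.52) and 0.27 higher after Sham (-0.04 to 0.58), and after AB it was higher by 0.15, 0.32, 0.45 and 0.08 in the 4 pairs of same-numbered arrays (adjusted p = 0.686 with the block). Its chromosome 9 neighbour Adamts15 was 0.09 (-0.15 to 0.33) and 0.26 (-0.02 to 0.53) higher. None of these 4 differences between group means passed, and in each pair of groups the arrays of both genes overlapped. In the same 4 pairs of AB arrays, Adamts15 differed by 0.36, 0.28, 0.10 and -0.35. Without the 3 Sham arrays high in Myl7, the difference after Sham was 0.08 for Adamts8 and 0.14 for Adamts15.

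The response to AB did not pass as different between the genotypes for any member (0 of 9, and 0% of all genes). At an unadjusted p under 0.05 the interaction term of limma gave 0 members and 2.88% of all genes. The response in CXCR5-/- minus that in WT ranged from -0.16 (Adamts15) to 0.20 (Adamts12, 95% interval -0.13 to 0.53) and was 0.14 for Adamtsl2 (-0.30 to 0.58) and -0.02 for Adamts8 (-0.43 to 0.38). The standard errors were 0.16 to 0.30, and the 95% interval of each of the 9 members held 0, the narrowest being that of Adamts9 (-0.48 to 0.18) and the widest that of Adamts1 (-0.65 to 0.59).

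Few of the other family genes passed. Of 15 other ADAMTS, ADAMTS-like and papilin genes, WT hearts had 1 that fell and 0 that rose, and CXCR5-/- hearts had 1 that fell and 2 that rose. Adamts7, the closest relative of Adamts12 and likewise a protease of COMP, fell with AB in WT (-0.59, adjusted p = 0.00250) and in CXCR5-/- (-0.59, adjusted p = 0.00153). Adamts12 rose, so this pair moved in opposite directions in both genotypes. In CXCR5-/- without the 3 Sham arrays high in Myl7, Adamts7 was at -0.57 (adjusted p = 0.0950) and Adamts12 at 0.62, about as far from 0 as with them, and neither passed. Adamtsl3 rose in CXCR5-/- (0.62) and was at 0.19 in WT; the call was lost without CXCR5-/- Sham replicate 1 (0.54) and without the 3 Sham arrays (0.57, adjusted p = 0.252). Adamts6, a relative of Adamts10, passed in CXCR5-/- (0.39, adjusted p = 0.0383) and was at 0.32 in WT. That call held in 16 of 27 alternatives: it was lost with quantile normalization or median centring (both 0.37), with array weights (0.23), with the mean of atrial markers as a covariate (0.36), without any 1 of CXCR5-/- AB replicates 1, 2 and 4 or Sham replicates 1 and 2 (0.26 to 0.41), and without the 3 Sham arrays (0.13). Adamtsl4 was at -0.22 in WT and -0.36 in CXCR5-/-, where it did not pass (adjusted p = 0.0611) but did in 8 of 27 alternatives, among them significance analysis of microarrays. Adamtsl1 was at 0.25 and 0.17 and Papln at 0.18 and 0.23, and neither passed. The other probe set of Adamtsl1, with a slightly lower mean over the arrays, gave 0.20 in WT and 0.39 in CXCR5-/-. The missing call for Adamtsl1 thus holds for the probe set used, and its difference in CXCR5-/- depended on the probe set.

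**Figure D3:**
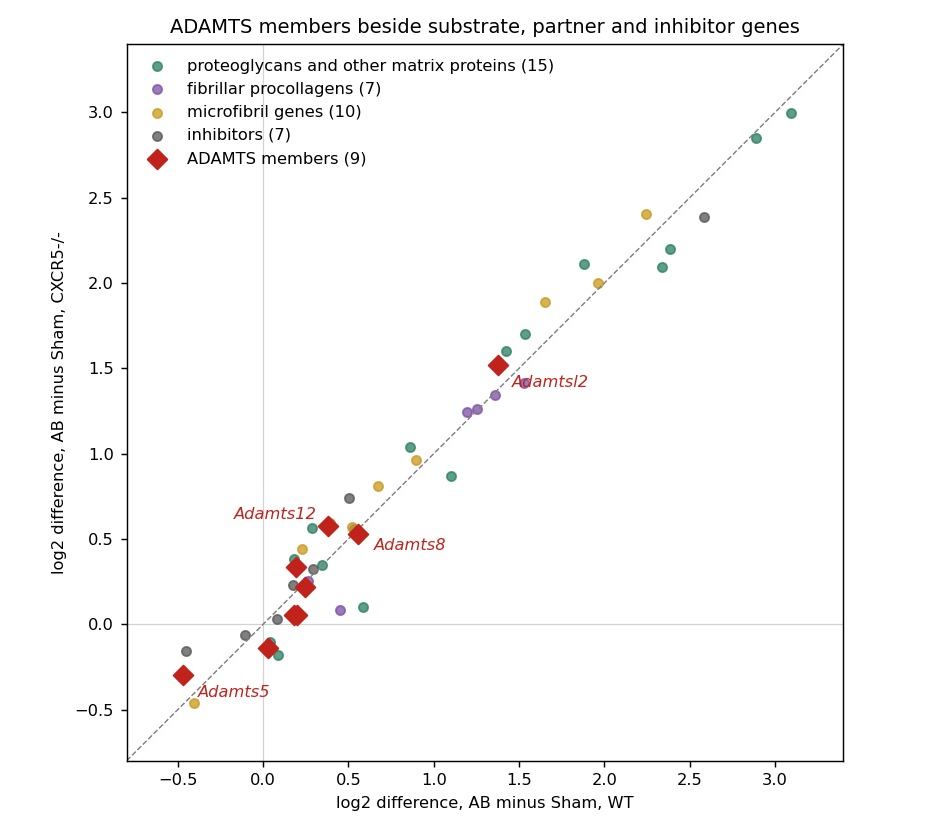
Log2 difference between AB and Sham in WT (horizontal) and in CXCR5-/- (vertical) for the 9 ADAMTS members and for genes of 4 lists of proteins around them, with the dashed line marking equal differences. Adamtsl2 lies at 1.37 and 1.52 among the procollagens and versican (1.42 and 1.60), and the other 8 members lie between -0.47 and 0.58.

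Genes of substrates and of other matrix proteins were counted next. Of 15 proteoglycans and other matrix proteins, among them the known substrates versican, aggrecan, biglycan and COMP, 9 passed as higher in WT and 10 in CXCR5-/-, none passed as lower, and the median difference was 1.10 and 1.04. Vcan, the versican gene and the main cardiac target of the proteoglycan-cutting members, rose by 1.42 in WT and 1.60 in CXCR5-/-. Postn (2.89 and 2.85), Cilp (3.09 and 2.99) and Fmod (2.34 and 2.09) rose as well. Of 7 fibrillar procollagen genes, the substrates of Adamts2 and its relatives, 5 rose in each genotype, among them Col1a1 (1.53 and 1.41), Col1a2 (1.19 and 1.24), Col3a1 (1.36 and 1.34) and Col5a2 (1.25 and 1.26). Of the other procollagen N-proteinases, Adamts3 was at -0.14 and 0.01 and Adamts14 at 0.00 and -0.12, and neither passed. The other probe sets of Adamts3 gave -0.42 to 0.04 in WT and -0.38 to 0.01 in CXCR5-/-, most of them below 0.

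Microfibril genes, whose products Adamts10 and Adamtsl2 bind or accompany, rose for 7 of 10 in WT and 9 of 10 in CXCR5-/-, and 1 fell in each. Mfap5 (2.24 and 2.40), Ltbp2 (1.96 and 2.0), Mfap4 (1.65 and 1.89) and Mfap2 (0.89 and 0.96) rose. Ltbp1, the latent TGF-beta binding protein reported to bind Adamtsl2, was the one that fell (-0.41 and -0.46). Without the 3 Sham arrays high in Myl7, fewer of the 10 passed in each genotype, as did fewer of all genes in CXCR5-/-. Over the 27 alternatives Mfap5 ranged from 2.05 to 2.34 in WT and from 2.23 to 2.86 in CXCR5-/-. Mfap2 ranged from 0.71 to 1.11 and from 0.88 to 1.08.

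Among 7 inhibitors, Timp1 (2.58 and 2.39) and Timp2 (0.50 and 0.74) rose in both genotypes and none fell. In WT the rise of Timp2 held in 20 of 27 alternatives and was lost without any 1 of the 3 WT Sham replicates (0.44 to 0.54, adjusted p = 0.0615 to 0.0860). Without the 3 Sham arrays high in Myl7, Timp2 was at 0.44 and 0.80 and did not pass, so that 1 of the 7, Timp1, rose in each genotype. Timp3, the tissue inhibitor known to block ADAMTS proteases best, was at 0.08 and 0.03. Reck (0.29 and 0.32) and the ADAMTS-binding Papln did not pass. Of 6 genes for activation and uptake, Lrp1, the receptor that clears ADAMTS proteases from the matrix, rose in both (0.57 and 0.70), while Pcsk5 was at 0.02 in WT and rose in CXCR5-/- (0.33), and Furin, the convertase that removes the propeptide, was at -0.31 in WT and fell in CXCR5-/- (-0.44). The rise of Lrp1 held in 11 of 27 alternatives in WT and in 25 in CXCR5-/-. Without the 3 Sham arrays high in Myl7, Lrp1 was at 0.46 in WT and 0.75 in CXCR5-/-. Furin passed in 22 of 27 alternatives in CXCR5-/- and in 3 in WT. Without those 3 arrays it was at -0.43 in WT, which passed, and at -0.44 in CXCR5-/-, which did not (adjusted p = 0.170). Of 7 hyaluronan genes, Cd44 (0.58 and 0.60), a hyaluronan receptor, and Tnfaip6 (0.76 and 0.73), a hyaluronan-binding protein, rose in both genotypes.

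Cell type markers moved with AB as well. Of 10 fibroblast markers, 5 rose in WT and 8 in CXCR5-/-, none fell, and their summed linear level was 7129 to 7557 in Sham WT, 7795 to 11394 in AB WT, 6576 to 7372 in Sham CXCR5-/- and 9426 to 11236 in AB CXCR5-/-. Without the 3 Sham arrays high in Myl7, fewer of these markers passed in CXCR5-/- but not in WT, and fewer of all genes passed in CXCR5-/-. Col1a1 and Dcn stand in this list and in those of matrix genes. Of 7 macrophage markers, 2 and 5 rose, of 8 endothelial markers 1 and 1 and of 9 smooth muscle and pericyte markers 0 and 2 (1 and 1 fell), while of 8 cardiomyocyte markers 1 and 3 fell. Without the 3 Sham arrays, 0 smooth muscle and pericyte and 0 endothelial markers rose in either genotype, 4 macrophage markers rose in CXCR5-/-, and 1 cardiomyocyte marker fell in each. Of 6 epicardial and 6 lymphocyte markers, 0 passed in either genotype, but the epicardial markers had a median difference of 0.53 in WT and 0.40 in CXCR5-/-, with all 6 above 0 in both, and 5 of them rose in the effect averaged over genotypes, as did 1 lymphocyte marker. When the 3 Sham arrays were left out, 1 epicardial marker rose in WT. The 1 measured red cell gene passed in neither genotype. Of 6 atrial markers, Nppa, which load also induces in the ventricle, rose (1.78 and 1.39), and without the 3 Sham arrays 2 rose in each genotype. In tissue RNA, fewer cells of a type and less RNA per cell cannot be told apart. With each array set against its group mean, the correlation with the mean of the fibroblast markers was 0.72 for Adamts5 and Adamts8, 0.66 for Adamts4, 0.60 for Adamts10, 0.55 for Adamts9, 0.54 for Adamts15, 0.40 for Adamts12, 0.17 for Adamtsl2 and -0.25 for Adamts1, as a description over 14 arrays that share their groups. The part of these cell types in the members' differences was not tested.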

How the data were processed

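Left ventricular RNA of 14 male mice was hybridised to Affymetrix mouse ST 1.0 arrays, 1 per mouse. The authors deposited log2 values per probe set after robust multi-array averaging (RMA), which corrects background, normalizes between arrays and summarizes probes; software version and settings are not given in the sources used here. Arrays have no read depth, and their number limits the precision. The labels name another RNA kit than the methods.

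The platform table gave 1 symbol for 21640 of 34760 probe sets, several symbols for 1321 and no entry for 11799; for each of 19937 genes the single-symbol probe set with the highest mean was kept. Groups were taken from the sample labels. limma 3.58.1 (R 4.3.3) was fitted with 4 group means on all 14 arrays, with contrasts for AB in each genotype, its average, genotype after each surgery, and the difference of responses. Adjustment was by Benjamini-Hochberg over all genes. The script was tested on simulated data. Replicates are separate mice. Same-numbered arrays deviated together between WT AB and CXCR5-/- AB (r = 0.13 to 0.22 in 4 of 4 pairs). Between WT Sham and CXCR5-/- Sham r was 0.45, 0.03 and 0.17, and between Sham and AB of a genotype it ranged from -0.11 to 0.26. For genotype after AB the number was treated as a pairing found in the data, in an alternative with a block over all contrasts. The main fit has no block, and the labels do not say what the number marks.

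All members are named; of each surrounding list up to 4 genes with the smallest p in the average AB effect are named, and up to 6 other family members with the smallest p per genotype, and Adamts3, Adamts14, Timp3, Ltbp1, Pcsk5 were added for their roles after their values were seen. Members and lists were chosen with earlier results of these data known. Alternatives were variance model, array weights, dim probe set filter, quantile normalization, median centring, probe set choice, compared groups alone, replicate block, significance analysis of microarrays, atrial covariate, and arrays left out; 1, without 4 arrays high in atrial genes, was chosen after seeing the data. Promoter windows came from RefSeq (GRCm38.p6). Array coordinates were not used here.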

Additional observations from a re-analysis of the deposited data

How the results depend on the processing

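Adamtsl2 passed in both genotypes under all 27 alternatives, Adamts8 in 26 (WT) and 25 (CXCR5-/-), and Adamts12 in 19 and 26. Among these, leaving out a CXCR5-/- array does not change the WT difference, only its standard error and adjusted p, and likewise in reverse. With the replicate block, 3 members passed in each genotype, 0 between genotypes and 0 for the difference of responses, so the pairing changed no call on a count of members; over all genes it gave 2636 in WT, 3623 in CXCR5-/- and 21 between genotypes after AB, against 1858, 2818 and 9. Leaving out each array in turn, 1 to 3 members passed in WT; the 1 was without WT Sham replicate 3.

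No value that passed changed sign. Adamts15 in WT was -0.0051 with quantile normalization and -0.0036 with median centring, and -0.046 to 0.079 with 1 array left out. With 1 array left out, Adamts9 in CXCR5-/- ranged from -0.020 to 0.11 and Adamts1 in WT from -0.019 to 0.43. Without the 3 Sham arrays high in Myl7, Adamts1 in WT was -0.019, Adamts15 in CXCR5-/- 0.033 and Adamtsl2 between genotypes after Sham -0.039; without AB CXCR5-/- replicate 4 as well, these were -0.019, 0.15 and -0.039. The cause was not tested. Of 599 further values given as ranges over members, 37 changed sign and none of these passed.

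Counts over all genes that moved by more than 1.5 times were 3408 in WT and 4770 in CXCR5-/- with array weights, 1025 and 1002 in WT without WT Sham replicates 2 and 3, and 844 in CXCR5-/- without the 3 Sham arrays (954 without replicate 4 as well). After AB, 4 genes passed between genotypes with the compared groups alone, 16 with the atrial covariate, 5 and 4 without CXCR5-/- replicates 2 and 3, 34 without replicate 4, 5 without the 3 Sham arrays and 30 without these 4 arrays. After Sham, against 8, these were 39 with array weights, 3 to 5 without any 1 of WT replicates 1, 2 and 3 or CXCR5-/- replicates 2 and 3, and 1 without the 3 Sham arrays. With 14 arrays, members whose probe sets are dim may be compressed towards 0.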
